A study of Homo sapiens with 16 samples.

Results

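The nuclear genes for the subunits of oxidative phosphorylation were followed in SUM-225 cells, a breast cancer line with amplified and over expressed HER2, during 45 h in CP724,714, a small molecule that blocks the kinase activity of HER2. The probes were chosen by gene symbol: NDUFA, NDUFB, NDUFC, NDUFS and NDUFV for complex I, SDHA to SDHD for complex II, UQCR and CYC1 for complex III, COX4 to COX8 with a suffix for complex IV, and ATP5 for complex V. These letters were fitted by 92 of the 24526 probes deposited, and 83 of the 92 had a detection p-value under 0.05 on 3 or more of the 16 arrays. Each of the 83 was in fact detected on all 16 arrays. The letters also take in NDUFAF1, COX4NB and ATP5S, which are not subunits, and their 4 probes were set apart. Of those 4, NDUFAF1 and one ATP5S probe rose (0.54 ± 0.12 and 0.41 ± 0.13, SE), COX4NB fell (-0.42 ± 0.10) and the other ATP5S probe changed by -0.06, in log2 units over 45 h by limma. This left 79 subunit probes of 68 genes, among 16110 probes tested: 33 probes for complex I, 4 for complex II, 7 for complex III, 11 for complex IV and 24 for complex V. The 9 subunit probes that did not pass were those of NDUFA5, NDUFB4, NDUFS6, COX4I2, COX6A2, COX6B2, COX7A1 and COX8C and a further ATP5G2 probe. COX6B2 was detected on 1 array and the other 8 probes on 0. No probe of a subunit encoded by mitochondrial DNA was found in the table by its symbol, so complexes I, III, IV and V are described by their nuclear subunits alone.

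The samples were 16 parallel cultures of one cell line. Their labels give a medium with serum, insulin and hydrocortisone, whereas the study's methods name a medium without insulin for this line. The study also states that the line can be kept in serum-free conditions, so the sources differ on serum as well. All 16, the 0 h culture included, carry the label of treatment with 1 µM CP724,714, and 1 culture was harvested every 3 h from 0 to 45 h for 1 array each. No time point was replicated and no untreated course was analysed here, so the inhibitor, time in culture and the change of medium at the start of treatment cannot be told apart. Errors are standard errors (SE) around a smooth course fitted over the 16 arrays, and p-values measure only the spread of single arrays around it. Levels are log2 values after background correction and quantile normalization, so a change is a change relative to the other probes of the same array.

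Oxidative phosphorylation is the last stage of respiration. Complexes I and II pass electrons from NADH and from succinate to coenzyme Q, complex III passes them on to cytochrome c, and complex IV hands them to oxygen. Complexes I, III and IV pump protons across the inner mitochondrial membrane, and complex V, the ATP synthase, uses their return to make ATP.

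The arrays had a median deposited signal of 242.2 to 383.8 and a brightest signal of 71727.1 to 74151.6, and 57.5% to 61.5% of the probes were detected on each. The number of arrays limits the precision. The probes of the HER2 amplicon gene ERBB2 and of the luminal keratin KRT19 reached 99.4% and 99.3% of the brightest signal of an array. Of 5 luminal markers 2 fell, KRT8 (-0.68 ± 0.10) and KRT18 (-0.74 ± 0.10), and the median linear change of the 5 was -0.37. Of 7 markers of other cell types, PTPRC and VIM were detected on 0 arrays, CDH5 on 1, and COL1A1 and COL1A2 on 5 each. CD14 and PECAM1 were detected on all 16 arrays, and 1 of the 4 markers tested, CD14, rose (linear change 0.34 ± 0.14, SE, limma adjusted p = 0.0499). The part of these markers in the results was not tested.

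The first question was which subunits changed with time in the inhibitor and in which direction. Changes were small, and more probes fell than rose. The linear change, which is the straight-line part of the fitted course over 45 h in log2 units, ran from -0.87 (ATP5G1) to 0.88 (a dim NDUFV3 probe, 0.48 without the 45 h array), with a median of -0.042 over the 79 probes against 0.05 over all probes tested. By limma at an adjusted p under 0.05, 31 of the 79 probes (39.2%) had a linear trend, against a background of 47.7% of all probes. Of these 8 rose (10.1%, background 26.0%) and 23 fell (29.1%, background 21.7%). The F-test for any dependence on time was passed by 37 probes (46.8%, background 51.3%) and the test for a departure from a straight line by 13 (16.5%, background 19.3%), or by 6 without the 45 h array. The size of the change exceeded 0.5 for 12 of the 79 probes, against 5992 of the 16110 probes tested. With 1 array left out at a time, 22 of the 31 calls remained in all 16 fits, 5 of them rises and 17 falls. Under a limma fit with a separate level for each set of 4 consecutive arrays, 0 of the 79 probes had a linear trend (7 at an unadjusted p under 0.05), where 68 of all probes tested rose and 77 fell. The linear part of that fit is the slope within sets of 4 arrays, and not the change across the course. For ATP5G1, ATP5J2, COX7B, COX7B2, NDUFV1, SDHB and SDHD, described in the following, it had the other sign without passing the threshold. With a single step between 21 and 24 h in the fit 14 fell (17.7%) and 0 rose (19 and 2 at an unadjusted p), where 1477 of all probes (9.17%) fell and 1615 rose.

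The complexes differed in their counts. For all probes tested the share called was 47.7% (26.0% upward and 21.7% downward). A linear trend was found in complex I for 20 of 33 probes (6 up and 14 down, median change of all 33 probes -0.15), in complex II 2 of 4 (1 rose and 1 fell, median 0.07), in complex III 1 of 7 (a fall, median -0.0105), in complex IV 2 of 11 (both falls, median 0.011) and in complex V 6 of 24 (1 rose and 5 fell, median -0.10). With arrays scaled by their medians the median was -0.094 in complex IV and -0.24 in complex V. No test between complexes was made, because the probes of a complex are not replicates. The brightness of the probes differed as well. In complexes I to V, 12, 1, 3, 10 and 12 probes reached 50% or more of the brightest signal of an array. In complex IV 6 probes reached 90% or more. Among all probes at 50% or more 46.5% were called, and among those at 90% or more 23.1%. The part of brightness in the different counts was not tested. Some genes of complex V have several probes, and with 1 probe for each gene 3 of its 14 genes had a linear trend and the median was -0.0184.

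**Figure D1:**
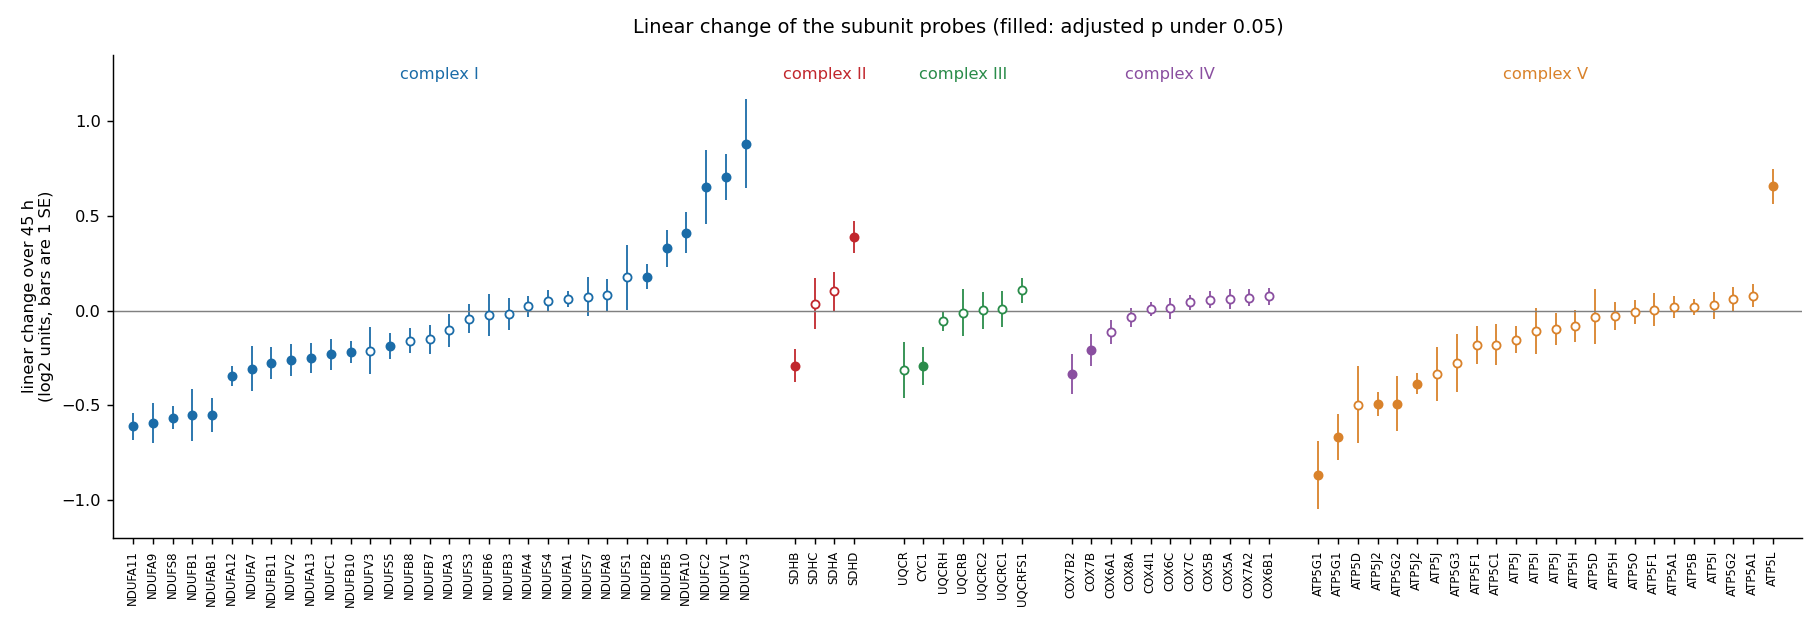
Linear change over 45 h (log2 units) of 78 subunit probes, ordered within complexes I to V, with bars of 1 SE; filled points had an adjusted p under 0.05. Complex I holds 13 filled points below zero and 6 above it, while 9 of the 11 complex IV points are open and lie near zero.

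Complex I takes electrons from NADH through a flavin and a chain of iron-sulfur clusters. Within its catalytic core NDUFV1 and NDUFS8 moved in opposite directions. NDUFV1, which holds the flavin and binds NADH, had log2 values of 13.03 to 13.40 on the arrays from 0 to 21 h and of 13.53 to 13.91 from 24 h on, so the early and the late arrays did not overlap. Its linear change was 0.70 ± 0.12 (SE, limma adjusted p = 8.65e-05), a 1.63-fold rise, and the arrays of 24 to 33 h were higher than those of 12 to 21 h by 0.51 (adjusted p = 0.000156). With a step between 21 and 24 h in the fit, the linear part of NDUFV1 was -0.14 (adjusted p = 0.721). NDUFS8, an iron-sulfur subunit of the arm that leads to coenzyme Q, went the other way. It was highest at 0 h (15.57) and lowest at 45 h (14.91), and its linear change was -0.56 ± 0.06 (adjusted p = 3.12e-07), a fall of 1.48-fold. The flavoprotein subunit NDUFV2 (-0.26 ± 0.09) also fell, its call being lost on leaving out 45 h (-0.16, adjusted p = 0.153). NDUFS1, NDUFS3 and NDUFS7 had linear changes of 0.17 ± 0.17, -0.042 ± 0.08 and 0.07 ± 0.10 and were not past the threshold.

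The accessory subunits surround that core. Among the 11 NDUFA genes 6 fell and 1 rose, with a median change of -0.25. NDUFA11, a membrane subunit, fell most. Its log2 value was 14.01 to 14.23 on the arrays from 0 to 15 h and no more than 13.96 afterwards, with its lowest value (13.57) at 39 h, and its linear change was -0.61 ± 0.07 (adjusted p = 6.67e-07). NDUFA9 was 13.96 to 14.18 at 0 to 9 h and between 13.43 and 13.66 on all 12 later arrays. Its linear change was -0.59 ± 0.11 (adjusted p = 0.000112), but the difference lay between the first 4 arrays and the rest: the arrays of 12 to 21 h were lower than those of 0 to 9 h by a difference of -0.54 ± 0.06, and the later sets differed from each other by 0.03 and -0.041. NDUFAB1, the acyl carrier protein of the mitochondrion, changed by -0.55 ± 0.09. NDUFA10 was the NDUFA gene that rose (0.41 ± 0.11, adjusted p = 0.00435), from 12.06 at 15 h to 12.70 at 33 h. NDUFA4, which has a symbol of complex I but is now placed in complex IV, changed by 0.022 ± 0.06 and stood at up to 93.7% of the brightest signal.

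Among the 11 NDUFB and NDUFC genes 3 rose and 4 fell. The rise of NDUFC2 (0.65 ± 0.19) rested on the last array. Its log2 value was 9.17 at 45 h and 7.31 to 8.23 on the other 15 arrays, and without the 45 h array the change was 0.21 (adjusted p = 0.427). NDUFB2 likewise had a change of 0.18 ± 0.07 with that array and 0.06 without it (adjusted p = 0.50). The 45 h array had the fewest detected probes of the 16 (14110) and the lowest weight (0.27) when arrays were weighted by their fit. The next lowest weight was that of the 0 h array (0.297). NDUFB5, at 0.33 ± 0.10, stayed past the threshold in all 16 fits with 1 array left out. NDUFB1 fell (-0.55 ± 0.14). NDUFA1, the brightest complex I probe, reached 95.6% of the brightest signal and changed by 0.06 ± 0.04.

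Complex II is succinate dehydrogenase, an enzyme of the citric acid cycle as well as of the respiratory chain, and all of its subunits are nuclear. Its 4 genes did not move together. SDHB, the iron-sulfur subunit, was 15.00 to 15.17 at 0 to 9 h and 14.58 to 14.85 on every later array, again without overlap. Its linear change was -0.29 ± 0.09 (limma adjusted p = 0.0105). SDHD, a membrane anchor that helps to bind coenzyme Q, rose by 0.39 ± 0.09 (adjusted p = 0.000897), from its lowest value of 12.98 at 9 h to its highest of 13.61 at 36 h. SDHA, the flavoprotein, was lowest at 0 h (12.92) and highest at 9 h (13.49), and its linear change of 0.10 ± 0.10 was not past the threshold (adjusted p = 0.454). SDHC, the other anchor, was lowest at 15 h (11.98) and highest at 9 h (12.65), with a linear change of 0.037 ± 0.13 (adjusted p = 0.843).

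Complex III had 1 linear call among 7 probes. CYC1, the cytochrome c1 that hands electrons to cytochrome c, was highest at 3 h (15.81) and lowest at 21 h (15.12), and stood at 15.59 on the next array. Its linear change was -0.29 ± 0.10 (limma adjusted p = 0.0224), its course was curved (adjusted p = 0.0334), and the linear call was lost without the 0 h, the 3 h or the 45 h array (-0.22 and adjusted p = 0.126 without 3 h). UQCRH, the hinge protein and the brightest probe of the complex, stood at 15.72 to 15.94 and changed by -0.06 ± 0.05. UQCRFS1, the Rieske iron-sulfur protein, changed by 0.11 ± 0.06, and the core proteins UQCRC1 and UQCRC2 by 0.0080 ± 0.09 and 0.0010 ± 0.10.

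Complex IV had the smallest ranges after quantile normalization, on probes that were also the brightest, with a median highest signal of 93.5% of the brightest on the array. The range of a probe over the 16 arrays had a median of 0.21 log2 units in complex IV, against 0.60 in complex I, 0.48 in complex V and 0.98 over all probes tested. Over all probes at 50% or more of the brightest signal the median range was 0.44, and over those at 90% or more it was 0.16. The small ranges are thus not particular to complex IV among probes this bright. With median scaling the median difference of complex IV between 12 to 21 h and 0 to 9 h was -0.32, against -0.34 in complex V and -0.23 in complex I. The value of all probes this bright under that scaling is not given here. In the deposited signals 0 of the 11 complex IV probes were lower at 12 to 21 h. They were higher by a median of 0.12, where all probes at 90% or more of the top were higher by 0.06. COX4I1, whose product is a regulatory subunit, lay between 16.07 and 16.13 on all 16 arrays (deposited signal 68615.8 to 72906.1, up to 98.9% of the top) and changed by 0.0068 ± 0.037. The widest ranges of the complex were those of COX7B2 (0.54), its dimmest probe with 6.29% of the top signal, and of COX7B (0.50, at 52.5%). COX7B2 was 11.63 to 11.67 at 12 to 21 h and at or below 11.53 on all other arrays. Its linear change was -0.33 ± 0.11 (adjusted p = 0.0134), and it was the single subunit probe that was higher at 12 to 21 h than at 0 to 9 h (0.27 ± 0.08, adjusted p = 0.0178). Its paralog COX7B was highest at 9 h (14.95) and lowest at 24 h (14.45). Its linear change of -0.21 ± 0.08 (adjusted p = 0.0476) kept its call in 5 of the 16 fits with 1 array left out. The change of COX7B minus that of COX7B2 was 0.12 (95% interval -0.16 to 0.41), which does not separate the pair. Of the subunits with a second form, COX4I2, COX6A2, COX6B2, COX7A1 and COX8C were not detected on 3 arrays, so those forms could not be compared.

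Complex V makes ATP in a catalytic head, inside which a central stalk is turned by a ring of c subunits in the membrane. A linear trend was found by limma for 0 of the 6 probes of the head and central stalk (ATP5A1, ATP5B, ATP5C1 and ATP5D) and for 0 of the 8 of the peripheral stalk (ATP5F1, ATP5H, ATP5J and ATP5O), with 1 and 2 falls at an unadjusted p under 0.05. ATP5B, the catalytic β subunit, lay between 15.94 and 16.09 and changed by 0.018 ± 0.044, at up to 97.6% of the brightest signal. The 6 calls were in the membrane part. ATP5L, subunit g, was the one that rose. It was 10.74 to 10.99 from 0 to 21 h and 11.09 to 11.38 from 24 h on, with its lowest value at 0 h and its highest at 45 h, and its linear change was 0.66 ± 0.09 (adjusted p = 7.73e-06), or 1.58-fold. ATP5J2, subunit f, fell on both of its probes (-0.39 ± 0.06 and -0.49 ± 0.07).

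Ring subunit c is encoded by 3 genes, ATP5G1, ATP5G2 and ATP5G3, whose mature proteins are the same. ATP5G1 fell. Its brighter probe was 14.33 to 14.61 at 0 to 9 h, 13.59 to 13.83 at 12 to 21 h and 13.65 to 13.74 from 24 to 42 h, before 14.08 at 45 h, so the arrays of 0 to 9 h lay above all others. The linear change was -0.67 ± 0.12 (limma adjusted p = 0.000149), a fall of 1.59-fold, and the dimmer ATP5G1 probe changed by -0.87 ± 0.18. ATP5G3 was 9.92 to 10.10 at 0 to 9 h and 9.23 to 9.75 afterwards. Its linear change of -0.28 ± 0.15 was not past the threshold (adjusted p = 0.144), while its arrays of 12 to 21 h were lower than those of 0 to 9 h (-0.66 ± 0.09, adjusted p = 1.96e-05). The bright ATP5G2 probe stayed between 15.39 and 15.73 and changed by 0.06 ± 0.06. On the brightest probe of each gene, the change of ATP5G1 minus that of ATP5G2 was -0.73 (95% interval -1.08 to -0.37) and that of ATP5G1 minus ATP5G3 was -0.39 (-0.54 to -0.24). That of ATP5G2 minus ATP5G3 was 0.34, with an interval of -0.0442 to 0.72 that includes zero. The dimmer ATP5G2 probe fell (-0.49 ± 0.15), and with it the difference of ATP5G1 from ATP5G2 was -0.17 (-0.51 to 0.16) and that of ATP5G2 from ATP5G3 was -0.22 (-0.57 to 0.14), so the separation of ATP5G1 from ATP5G2 depends on the probe.

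**Figure D2:**
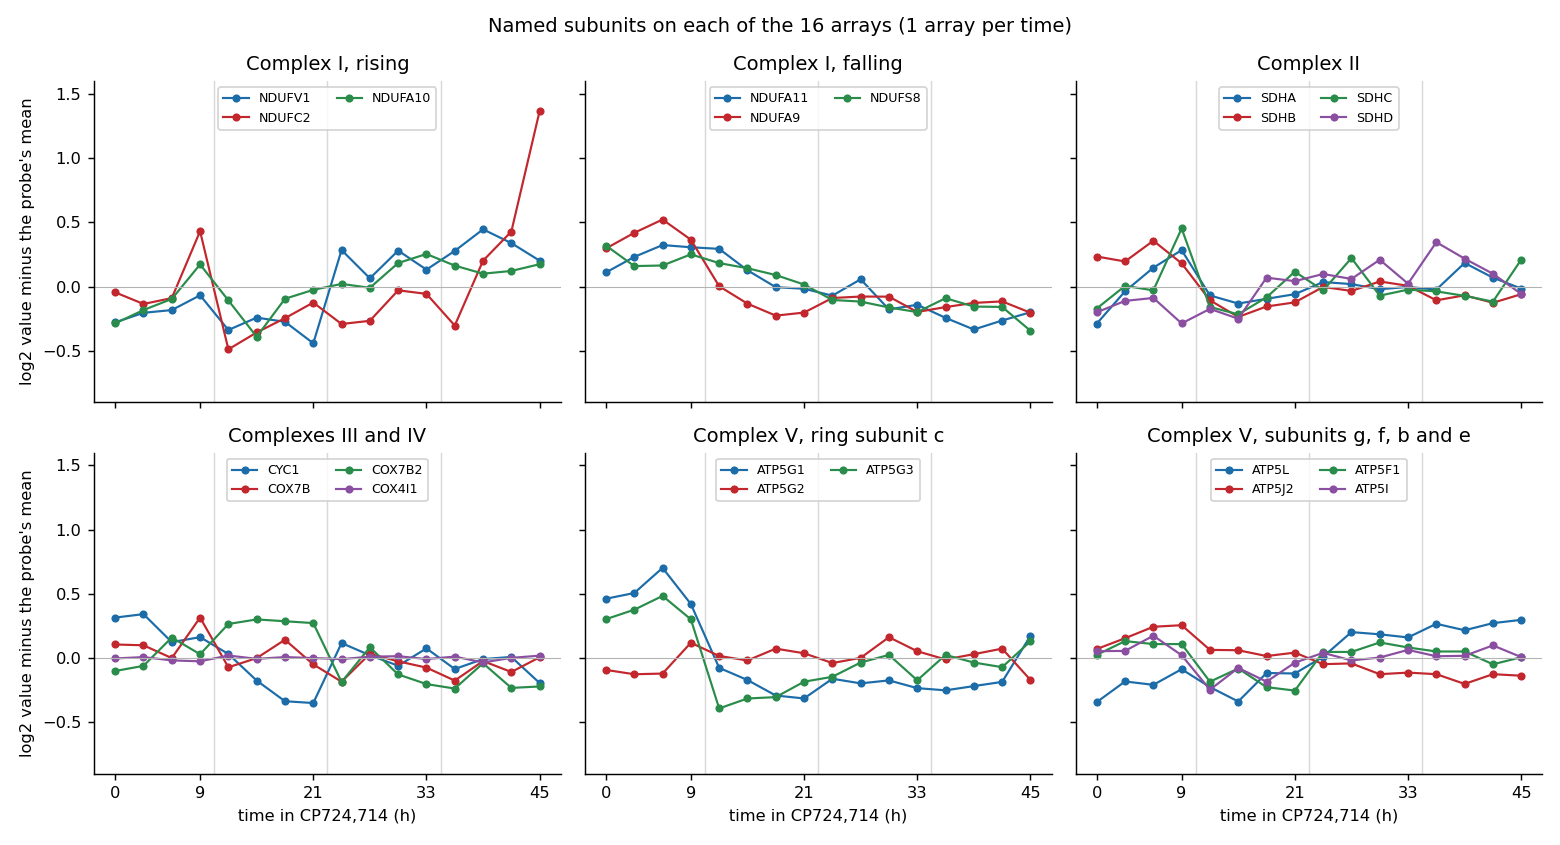
Log2 value minus the probe's mean (vertical axis) against hours in CP724,714 for named subunits, with 1 point per array and grey lines between sets of 4 arrays. NDUFV1 and ATP5L lie higher from 24 h on, NDUFA9, ATP5G1 and SDHB lie lower from 12 h on, COX4I1 stays flat, and the last NDUFC2 point (9.17 on the log2 scale) stands far above the others of its gene.

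The courses of the complexes over time shared a fall between 9 and 12 h. From 9 h to 12 h 68 of the 79 probes went down (86.1%, against 48.3% of all probes tested), by a median of 0.17 (a step of -0.17), and this was the case for 24 of 24 probes of complex V, 26 of 33 of complex I, 3 of 4 of complex II, 6 of 7 of complex III and 9 of 11 of complex IV. Over the other 14 intervals the share that went down was 27.8% to 68.4%. The median of complex V, relative to each probe's own mean, was highest at 6 h (0.21), stood at 0.18 at 9 h and was lowest at 12 h (-0.14), after which it came back to 0.0082 by 24 h. In complex I the same median was also highest at 6 h (0.15), with 0.13 before the drop and -0.05 after it, and was -0.0397 by 24 h. That of complex IV stayed between -0.0283 and 0.0247 throughout.

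**Figure D3:**
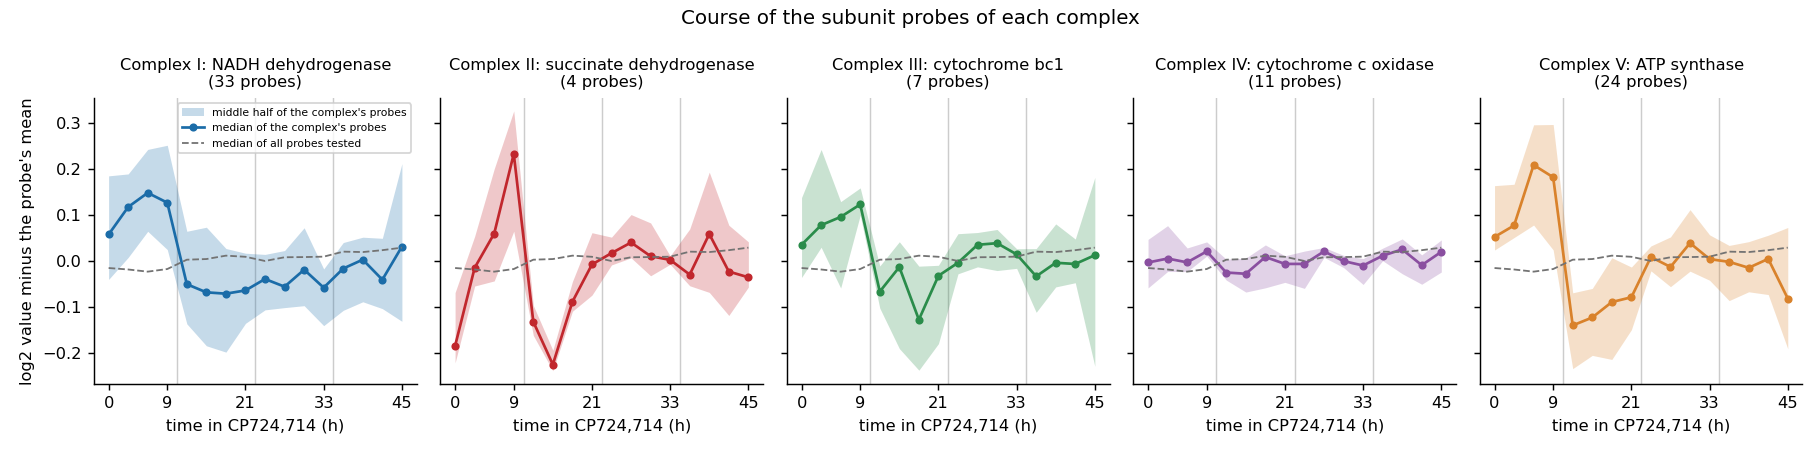
Median log2 value minus the probe's mean (line and points) with the interquartile range (shaded) for the probes of complexes I to V against hours in CP724,714; the dashed line is the median of all probes tested and grey lines mark sets of 4 arrays. Complexes I, II, III and V drop between 9 and 12 h, complex V from 0.18 to -0.14, whereas complex IV stays within 0.03 of zero.

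All 4 arrays of 12 to 21 h lay below all 4 arrays of 0 to 9 h for 32 of the 79 probes (40.5%, background 13%), and above them for 1 probe (background 12.5%). Of the 32 probes 16 belonged to complex V, 10 to complex I, 3 to complex III, 2 to complex IV and 1 to complex II. With 1 probe per gene it was 9 of the 14 genes of complex V. In a limma comparison of the means of these sets, added after the drop had been seen, 29 probes were lower at 12 to 21 h (background 13.9%) and 1 was higher (background 15.9%). The median difference was -0.22 in complex V, -0.14 in complex I, -0.13 in complex II, -0.14 in complex III and 0.0014 in complex IV, against 0.036 over all probes. Within complex V 7 of the 8 peripheral stalk probes were lower, with a median of -0.27 over the 8. They were the probes of ATP5F1, ATP5H and ATP5J, which have several each, while ATP5O (0.037) was not past the threshold. Also lower were 3 of the 6 probes of the head and central stalk and 3 of the 5 of ring subunit c. The largest differences were those of the dimmer ATP5G1 probe (-1.06 ± 0.11, from a mean of 9.94 to 8.88), of the dimmer ATP5D probe (-0.81 ± 0.13) and of the brighter ATP5G1 probe (-0.74 ± 0.09). Outside complex V they were those of NDUFA9 (-0.54 ± 0.06), UQCR (-0.54 ± 0.13) and NDUFA7 (-0.51 ± 0.07).

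The drop is relative to the rest of the array. In the deposited signals, before normalization, the arrays of 12 to 21 h were brighter as a whole, with array medians of 293.6 to 361.2 against 242.2 to 295.5 at 0 to 9 h. The mean deposited signal of 12 of the 79 subunit probes (15.2%) was lower at 12 to 21 h, against 8.49% of all probes tested, 11.8% of those at 10% or more of the top and 14.1% of those at 50% or more. In log2 units the deposited signal of the subunit probes was higher by a median of 0.16, where that of all probes tested was higher by 0.35 and that of all probes at 50% or more of the top by 0.23. Complex V was higher by 0.10 and complex IV by 0.12. All probes at 90% or more of the top were higher by 0.06, and 23.1% of them were lower. With arrays scaled by their medians in place of quantile normalization 44 subunit probes were lower. The share of all probes that were lower under that scaling is not given here, so this count has no background. The median difference over all probes was then 0.038. The median of complex IV was -0.32 in place of 0.0014, so for complex IV the drop depended on the scaling.

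Few probes of any kind moved further between 12 to 21 h and 24 to 33 h. Of the subunit probes 5 were higher (background 4.21%) and 2 were lower (background 3.36%), those of NDUFS8 and COX7B2. The higher ones were those of NDUFV1, NDUFA7 and ATP5L, the dimmer ATP5D probe and the brighter ATP5F1 probe. The other ATP5D and ATP5F1 probes were not past the threshold (0.32 and 0.11). The median of complex V was 0.12 higher. Between 24 to 33 h and 36 to 45 h 1 subunit probe was higher, that of NDUFB2 (0.27, limma adjusted p = 0.00794), and 0 were lower. The share of all probes for that step is not given here. From the first set to the last, 36 to 45 h, 29 probes were lower (background 20.0%), 14 of them in complex I and 11 in complex V, and 5 were higher (background 24.9%), with a median difference of -0.09 over the 79 probes against 0.045 over all probes. No batch is named in the labels, and the sets were seen only in these values, so sets of arrays and times cannot be told apart.

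The subunit probes were often among the brightest on the array, and whether this limited their changes was not tested. Of the 79 probes 38 reached 50% or more of the brightest signal of an array and 12 reached 90% or more, against 482 and 173 of the 16110 probes tested. The 12 were 6 probes of complex IV, 3 of complex V, 2 of complex I and 1 of complex III. A linear trend was called for 0 of these 12 (limma, also 0 at an unadjusted p under 0.05, background 23.1% of all probes this bright), and their largest change was 0.08. Among the 38 probes at 50% or more it was called for 10 (26.3%, background 46.5%), and among the 41 dimmer probes for 21 (51.2%, background 47.7%). For complexes IV and V the median change was -0.33 and -0.31 when the probes at 50% or more were left out, with 1 probe left in complex IV.

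**Figure D4:**
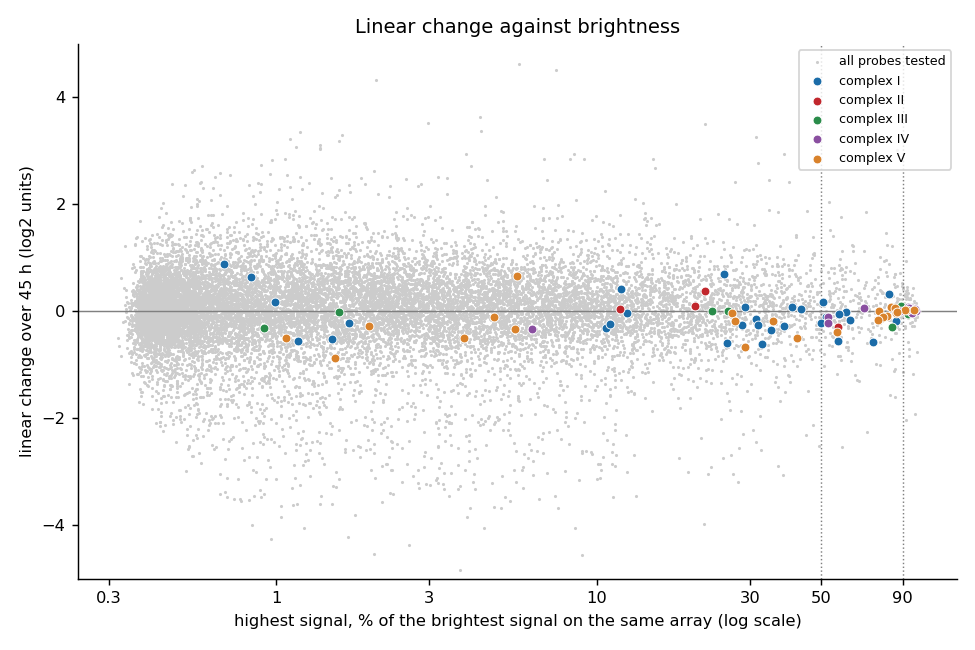
Linear change over 45 h (log2 units) against the highest signal of the probe as a percentage of the brightest signal on the same array (log scale), for all 16110 probes tested (grey) and the subunit probes (coloured by complex); dotted lines mark 50% and 90%. The 12 subunit probes past 90% lie within 0.08 of zero, and complex IV has 10 of its 11 probes past 50%.

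Probes of the same gene gave a further comparison, since 10 genes had 2 or 3 probes that passed. In all 10 the dimmest probe had the larger change in size and also the larger SE, and in 8 it had the more negative change. The median change was -0.031 for the brightest and -0.26 for the dimmest probes. For 6 genes the probes gave the same call and sign. For ATP5F1 (0.0049 and -0.18) and ATP5I (0.027 and -0.11) the signs differed and no probe was past the threshold. For ATP5G2 and NDUFV3 the calls differed. The dimmer ATP5G2 probe, with signals up to 767.0, fell by 0.49 (-0.49 ± 0.15, adjusted p = 0.00881), while the brighter one, with signals up to 62070.1, changed by 0.06. The NDUFV3 probe with the higher signal changed by -0.21 ± 0.12 and the dimmer one by 0.88 ± 0.23 (adjusted p = 0.00407). On that dimmer probe the 45 h array had 8.78 and the other 15 arrays at most 7.72, and without 45 h the change was 0.48 (adjusted p = 0.0897). Whether the probes of a gene measure the same transcripts was not tested.

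**Figure D5:**
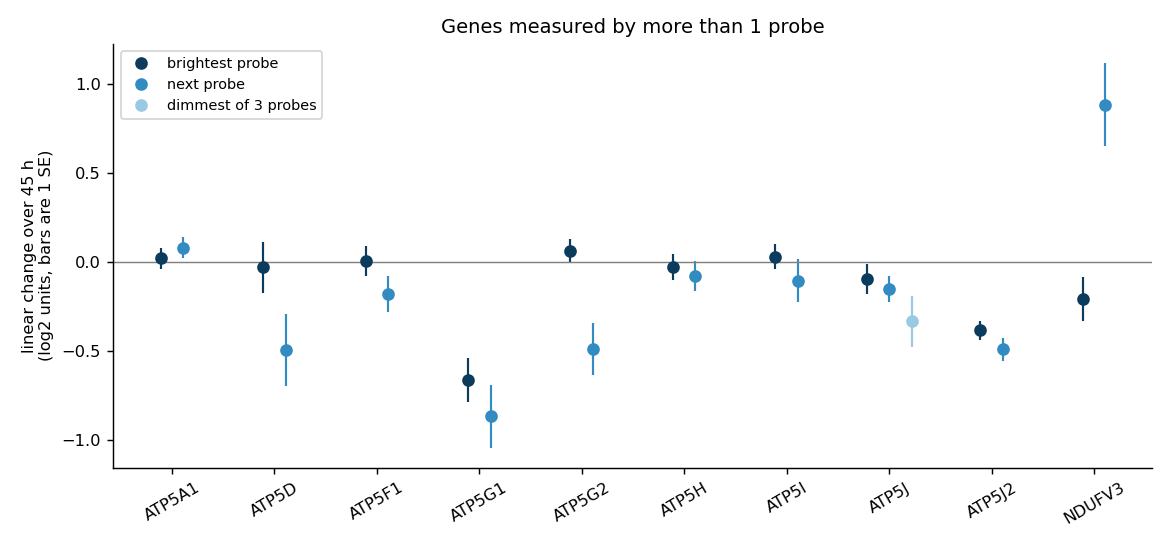
Linear change over 45 h (log2 units, bars of 1 SE) for the 10 genes measured by more than 1 probe, from the brightest probe (dark) to the dimmest (light). ATP5G1 and ATP5J2 fall on both probes, while the pairs of ATP5G2 and NDUFV3 differ in call.

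Genes that act with the respiratory complexes were followed as lists. Their counts stand against 26.0% of all probes that rose and 21.7% that fell, and their medians against 0.05. Of 27 assembly factors tested 7 rose (25.9%) and 9 fell (33.3%), with a median change of -0.09. FOXRED1, which assists the assembly of complex I, fell most (-0.98 ± 0.14), and COX20, an assembly factor of complex IV listed as FAM36A, rose most (0.71 ± 0.14). NDUFAF1, one of the genes set apart above, rose by 0.54 ± 0.12. Of 9 genes for cytochrome c, carriers and channels 2 rose (22.2%) and 3 fell (33.3%, median -0.10). SLC25A4, an ADP/ATP carrier, rose by 0.55 ± 0.08, and the uncoupling protein UCP2 changed by -0.88 ± 0.27. In the citric acid cycle, which supplies the electrons, 1 of 14 genes rose, SUCLG2 (0.57 ± 0.10), and 2 fell, the isocitrate dehydrogenase subunit IDH3A (-0.71 ± 0.13) and the citrate synthase CS (-0.65 ± 0.08). Of 4 genes of the pyruvate dehydrogenase complex, which feeds the cycle and was in the same list, 2 fell, DLAT (-0.30 ± 0.11) and PDHX (-0.33 ± 0.12). Over all 18 genes 5.56% rose and 22.2% fell, with a median of -0.06. Of 11 genes for coenzyme Q synthesis 2 rose (18.2%) and 4 fell (36.4%, median -0.06). PDSS1, which makes the side chain of coenzyme Q, had the largest change of all these lists, -1.88 ± 0.14 (limma adjusted p = 3.47e-09), and CABC1 rose by 0.72 ± 0.18.

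Among 14 transcriptional regulators of mitochondrial genes 2 rose (14.3%, against 26.0% of all probes) and 4 fell (28.6%, against 21.7%), with a median change of -0.27 against 0.05. The rises were those of PPARGC1A, the coactivator PGC-1α (0.96 ± 0.17, adjusted p = 8.75e-05), and of its partner ESRRA (0.54 ± 0.10). Those that fell were GABPB2 (-0.91 ± 0.11), listed under the symbol of a subunit of the factor GABP, the host cell factor HCFC1 (-0.76 ± 0.11), TFAM, which packages and transcribes mitochondrial DNA (-0.64 ± 0.09), and TFB1M (-0.57 ± 0.12). NRF1 was detected on 11 arrays and changed by -0.27 ± 0.22 (adjusted p = 0.347), and YY1 by -0.26 ± 0.12 (adjusted p = 0.0819).

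NRF1, GABP, YY1 and the estrogen-related receptors are known to act at promoters of respiratory genes, and the promoters of the subunits were searched on both strands for 4 short motifs. RefSeq (GRCh38.p14) gave a promoter of 250 bases before to 50 after the start for 61 of the 76 subunit genes on the array. The NRF1 core GCGCATGC was in 13 of the 61 genes (21.31%, against 4.89% of all coding genes), the ETS site CCGGAAG, which GABP binds, in 19 (31.15% against 16.53%), the YY1 site AAGATGGC in 11 (18.03% against 4.66%) and the ERR element TGACCTTGA in 1, SDHD (1.64% against 0.33%). Of all 35116 RefSeq promoters 3.05%, 10.26%, 2.89% and 0.35% held them. Of the 19 genes with an ETS site 2 rose, 2 fell and 8 (42.1%) were lower at 12 to 21 h. Of the 10 tested genes with an NRF1 core 1 rose, 1 fell and 3 were lower, and of the 11 with a YY1 site 3 fell, 8 had no linear trend and 6 (54.5%) were lower. These counts are of genes, each by its brightest probe. With 1 probe per gene, 7 of the 68 subunit genes tested rose (10.3%) and 20 fell (29.4%). Lower at 12 to 21 h were 29 of the 79 subunit probes, where a gene can count more than once. Among all probes 26.0% rose, 21.7% fell and 13.9% were lower. The stretches below are read 5′ to 3′ on the strand of the gene, with the NRF1 core and ETS letters of either strand in capitals. SDHB and SDHD are shown because both hold NRF1 and ETS letters while SDHB fell and SDHD rose, UQCR and COX5B as members of complexes III and IV, and ATP5G2, which has 2 promoters in the table, for the ring subunit.
SDHB, chr1:17054139-17054247, minus strand: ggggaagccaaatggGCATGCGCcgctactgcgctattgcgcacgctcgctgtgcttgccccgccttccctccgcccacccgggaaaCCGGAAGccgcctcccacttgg
SDHD, chr11:112086748-112086817, plus strand: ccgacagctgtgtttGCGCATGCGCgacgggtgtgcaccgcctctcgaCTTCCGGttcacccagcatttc
UQCR (UQCR11), chr19:1605538-1605594, minus strand: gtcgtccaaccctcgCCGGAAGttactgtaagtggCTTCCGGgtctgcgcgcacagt
COX5B, chr2:97645911-97646046, plus strand: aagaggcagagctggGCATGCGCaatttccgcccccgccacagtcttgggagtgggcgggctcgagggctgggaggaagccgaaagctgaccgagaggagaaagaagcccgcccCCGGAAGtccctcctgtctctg
ATP5G2 (ATP5MC2), chr12:53676101-53676138, minus strand: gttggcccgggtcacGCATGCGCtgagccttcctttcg
ATP5G2 (ATP5MC2), chr12:53676366-53676403, minus strand: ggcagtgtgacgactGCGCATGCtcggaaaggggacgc
The letters in these windows are a description and show no binding.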

How the data were processed

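SUM-225 cells were sampled at 16 time points, 1 array each. The deposited table gives linear signal intensity per probe, to which the authors had applied no normalization, and a deposited detection p-value. The study's methods name quantile normalization as a later step, and the scanning software is not given in the sources used here. Intensities were background corrected with normexp from the detection p-values (offset 16), quantile normalized and log2 transformed with neqc of limma 3.58.1 in R 4.3.3. Changes of dim probes are made smaller by the offset. Detection at p under 0.05 on 3 or more arrays was required. A cubic in hours was fitted with lmFit and eBayes (trend). Tests were two-sided and adjusted by Benjamini-Hochberg over the 16110 probes at 0.05. The fits were tested on simulated data. With 1 array a time, real change that is not cubic counts as error.

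The members, lists and tests were chosen with earlier results of these data known. Named genes were all SDH genes, the 3 largest rises and falls past the threshold and the brightest member of each other complex, genes whose probes differed in call or sign, paralog pairs, and the largest rise and fall of each list. The brightest probe stood for a gene in lists and paralog pairs. The values of 1 subunit gene are not reported here by name, although it is counted. Other members, and the grouping by role, were chosen after their values were seen. Paralog pairs were compared by the same cubic fitted to the difference per array (12 residual degrees of freedom). Means of sets of 4 arrays were compared with limma.

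Of 18631 symbols 91.0% matched RefSeq by symbol or synonym, as did 75 of the 76 subunit genes. The symbols ATP5B, ATP5G1, ATP5J2 and ATP5L are ATP5F1B, ATP5MC1, ATP5MF and ATP5MG there, ATP5F1 is ATP5PB and UQCR is UQCR11. UQCR10 and 2 small subunits of complex V stand in the table under symbols that the rule does not take in. Plots were made in Python 3.11.15 (matplotlib 3.10.9).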

Additional observations from a re-analysis of the deposited data

How the results depend on the processing

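Of 368 recomputed counts, medians and paralog differences 332 stayed within 1.5 times the main count or within the spread of the main value, and 534 of 575 values of named genes kept direction and call. No paired analysis was possible because the labels give 1 array per time.

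With arrays scaled by their medians, the median linear change was -0.094 in complex IV and -0.24 in complex V. ATP5G1 minus ATP5G3 was then -0.49 and COX7B minus COX7B2 was -0.022. At 12 to 21 h 44 subunit probes were lower than at 0 to 9 h, a count without a background under that scaling. The median difference between these sets was -0.23, -0.26, -0.32 and -0.34 in complexes I, III, IV and V. Cyclic loess gave complex V a median of -0.20 and complex IV a set difference of -0.14. Both scalings moved the median change of all probes by under 0.05. A step between 21 and 24 h left 14 linear trends (0 rose and 14 fell), 20 curved courses and medians of -0.25, -0.27 and -0.42 in complexes II, III and V, and reversed ATP5F1 (-0.57), COX7B2 (0.22) and NDUFV1 (-0.14). Sets of 4 arrays as a factor left 0 linear trends (0 rose and 0 fell by limma, 7 at an unadjusted p under 0.05). The linear part there is the slope within sets, scaled to 45 h, with medians of 0.14, 0.36 and 0.13 in complexes I, II and V. It had the other sign, not past the threshold, for ATP5G1 (0.13), ATP5J2 (0.11), COX7B (0.55), COX7B2 (0.081), NDUFV1 (-0.10), SDHB (0.082) and SDHD (-0.25). With the dimmer ATP5G2 probe, an alternative chosen after seeing the data, ATP5G1 minus ATP5G2 was -0.17 and ATP5G2 minus ATP5G3 was -0.22. Array weights gave 20 curved courses and no filter 8. Without probes at 50% of the top, complexes IV and V had medians of -0.33 and -0.31. The cause of these changes was not tested, beyond the smaller number of probes in the last.

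With 1 array left out in turn, 26 to 32 probes had a linear trend (6 to 8 rose, 18 to 25 fell), 29 to 40 depended on time, and 26 to 31 were lower and 0 to 1 higher at 12 to 21 h (0 without 3 h). Curved courses numbered 6 to 19, with 6 without 45 h, 7 without 3 h or 18 h and 19 without 9 h. The set difference of complex II was -0.22 to -0.0251, the lower without 0 h and the higher without 9 h.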
